A study of Homo sapiens with 4 samples.

Results

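The zinc finger genes of chromosome 19 were taken as the 249 protein-coding genes of that chromosome whose symbol is ZNF followed by a digit, of 20163 protein-coding genes on chromosomes 1 to 22, X and Y (GENCODE release 44 mapped to hg19). They were chosen by symbol and position, with no measured value. The other 1231 protein-coding genes of chromosome 19 were used for comparison, and 266 ZNF genes of other chromosomes were set beside them where named.

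RNA bound to Star-PAP, a nuclear non-canonical poly(A) polymerase encoded by TUT1, was measured by HITS-CLIP, in which RNA is crosslinked to protein with UV light, immunoprecipitated and sequenced. HEK 293 cells, a human embryonic kidney line, were crosslinked at 400 mJ per cm2 and precipitated with an anti-Star-PAP antibody in the control state (labelled StarPAP pulldown), after transfection of siRNA against Star-PAP (siStar-PAP) and after siRNA against RBM10 (siRBM10), an RNA-binding regulator of splicing. An IgG precipitate of the same cell line was the reference of the authors' peak calling. Each group was 1 library, so that differences between libraries had no replicate check and no test between conditions was possible. The labels do not say whether control cells received a siRNA, and the lists hold no expression values, so neither depletion was checked here.

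The deposited lists give the 1-bp summit of each peak and a score, the −log10 of the peak caller's p-value, with no strand, width or read number. They held 411400 summits in control, 325797 in siStar-PAP and 294402 in siRBM10. On chromosome 19 these were 5619, 16265 and 13695, or 1.37%, 4.99% and 4.65% of each list. The control list stood apart in that 63.2% of its summits carried a single score of 1.33, near the authors' limit of p = 0.05, whereas the commonest scores of the depleted lists, 2.92 and 3.25, were held by 22.8% and 22.7%. Intervals given below are 95% intervals that cover counting error only, exact Poisson for counts and densities, Wilson for shares, and of separate Poisson counts for ratios.

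Most members encode C2H2 zinc finger proteins, in which each finger holds a zinc ion between a pair of cysteines and a pair of histidines, and rows of fingers joined by short linkers read DNA. Many also carry an amino-terminal KRAB domain, which recruits the corepressor TRIM28 and the histone methyltransferase SETDB1, and such proteins are known for silencing of transposable elements. The genes arose largely by tandem duplication and lie in clusters on chromosome 19, and the whole finger array is usually encoded by 1 last coding exon.

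A zinc finger exon, the coding segment with most C2H2 matches in the longest coding sequence, was found for 246 members. The exceptions were ZNF625-ZNF20, ZNF816-ZNF321P and ZNF274, the last of which could not be read in a single frame on hg19. The exons held 3110 matches, with a median of 12 and at most 36 per member, and 241 of them were the last coding segment. Together they covered 0.382 Mb, or 80.6% of the coding sequence of members. The linker encoded between fingers is itself repetitive. The residues TGEKP occurred 1447 times in 214 members, in 137 DNA forms, and the 2 commonest forms, shown because they make exons of different members alike, were these:
form 1: actggagagaaaccc
form 2: actggagagaaacct
They accounted for 22.5% and 14.2% of these linkers. Form 1 was present on either strand in 99 zinc finger exons (40.2%), and in the coding sequence of 5 of the 1231 other genes of chromosome 19 (0.406%).

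A summit in the zinc finger exon was present in 44 members in control, 81 in siStar-PAP and 89 in siRBM10. In 3 members, ZNF226, ZNF507 and ZNF91, it was present in all 3 lists. This overlap was not compared with that of other genes or with chance. The sites of these 3 members are shown as 30 nt around the summit on the strand of the gene (hg19). Codons of the zinc-binding cysteines and histidines are in capitals.
ZNF226, control and siRBM10, chr19:44680096-44680125: tgattatgaaaaagacaacatgaagatttt
ZNF226, siRBM10, chr19:44681073-44681102: ACagtatagagaaaccttttaagTGTgagg
ZNF226, siStar-PAP, chr19:44681216-44681245: gatcttaaaattCACtgtaggatcCACaca
ZNF507, control, chr19:32845516-32845545: ttgagagaaaggacagaccaaaacgcttca
ZNF507, siRBM10, chr19:32844201-32844230: gatgTGCtcagagTGCcatattacatctag
ZNF507, siStar-PAP, chr19:32844320-32844349: gcccctccagctctttgtgtcggaaaacca
ZNF91, control, chr19:23543854-23543883: aagaaTGTggcaaagcttttagccattctt
ZNF91, siRBM10, chr19:23544885-23544914: tggagagaaaccctacaaaTGTgaagaaTG
ZNF91, siStar-PAP, chr19:23542981-23543010: accttactacaCATaagaggatgCACactg
ZNF226 and ZNF507 lie on the plus strand and ZNF91 on the minus strand. The summit of ZNF226 at position 44680110, ahead of its fingers, was the same base in control (score 1.33) and siRBM10 (3.25), and the other sites of a gene differed between lists. The window of ZNF91 in siRBM10 runs from a linker into the next finger, and its letters occurred 194 times in the genome, those of the control window of ZNF91 occurred in 2 places, and the other windows shown occurred once. Scores ranged from 1.33 for ZNF226 and ZNF91 in control to 7.53 for ZNF507 in siStar-PAP.

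Most members held summits in each list, and most of these summits were intronic. The gene bodies of members, 7.55 Mb, held 1076 summits in control, 1770 in siStar-PAP and 1542 in siRBM10, or 142.5, 234.5 and 204.3 per Mb. A summit was present in 201 of 249 members in control, in 242 in siStar-PAP and in 239 in siRBM10, and 193 members had one in all 3 lists. No member lacked a summit in every list. The median member had 3, 5 and 5 summits. Numbers followed gene length, with a Spearman correlation over the 249 members of 0.789, 0.661 and 0.646, given as a description, since neighbouring members overlap and share libraries.

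Set against the other genes of chromosome 19, members were denser in control and sparser in both depletions. The other genes, with 25.8 Mb of gene body, held 1992, 9257 and 7482 summits, or 77.1, 358.4 and 289.7 per Mb. Density in members was thus 1.85 times that of other genes in control (interval 1.72 to 1.99), 0.654 times in siStar-PAP (0.622 to 0.688) and 0.705 times in siRBM10 (0.668 to 0.745). The order in control rested on summits of low score. With summits of p at most 0.01 the ratio was 0.997 (0.899 to 1.11), and the control list kept 457 summits in members. With the same number of top summits from each list, 294402 with ties drawn at random, it was 1.495. That control set still held summits of the commonest score, which 63.2% of the control list carried. This setting thus does not leave out summits of low score. ZNF genes of other chromosomes held 136.8 summits per Mb in control, and the remaining genes outside chromosome 19 held 138.8, close to the 142.5 of members. In siStar-PAP these values were 146.7 and 132.8 and in siRBM10 117.5 and 117.7, below the members' densities in both lists.

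**Figure D1:**
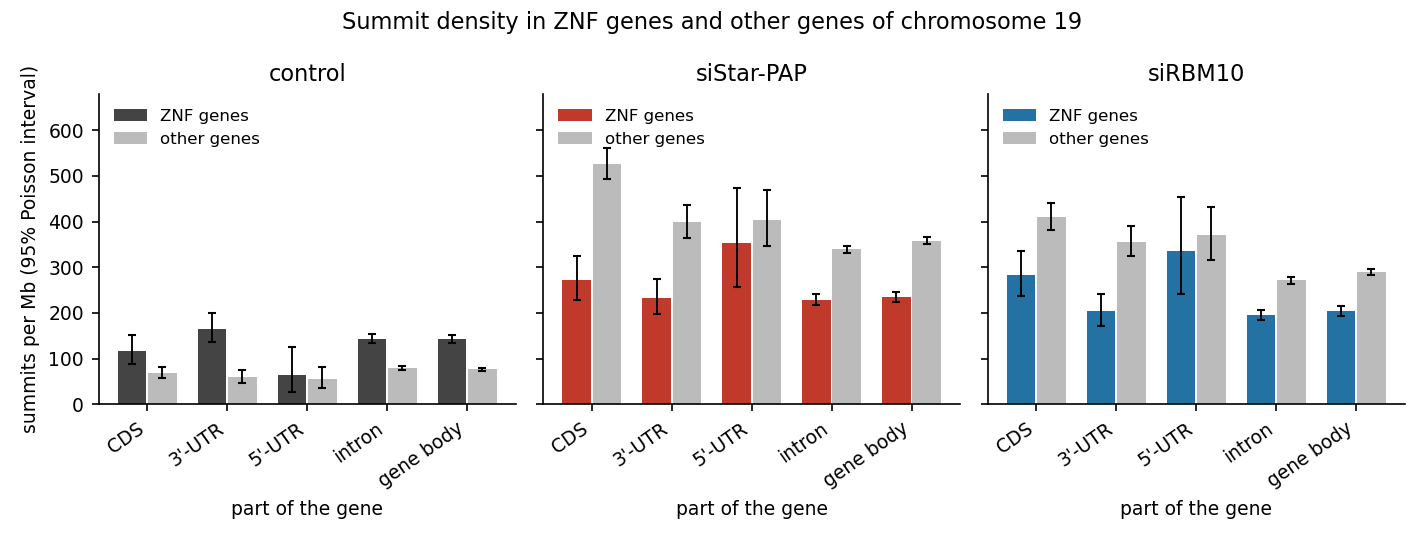
Summits per Mb in parts of the 249 ZNF genes (coloured bars) and of the 1231 other protein-coding genes of chromosome 19 (grey bars), 1 panel per library, with 95% Poisson intervals. In control the ZNF genes held 142.5 summits per Mb of gene body and the other genes 77.1, and in both depletions the other genes were denser.

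The number of summits in members was higher in each depletion than in control, by a smaller factor than in the other genes. It was 1.64 times the control number in siStar-PAP (1.52 to 1.77) and 1.43 times in siRBM10 (1.33 to 1.55), beside 4.65 (4.43 to 4.88) and 3.76 (3.57 to 3.95) in the other genes. The ratio of these ratios was 0.354 (0.324 to 0.387) for siStar-PAP and 0.382 (0.348 to 0.418) for siRBM10. At p at most 0.01 the members' factors were 3.45 and 3.08, and the ratios of ratios 0.855 and 0.850, so that the gap between members and other genes was smaller without summits of low score. ZNF genes of other chromosomes held 1.07 and 0.859 times their control number. Members in siRBM10 had 0.871 times the summits of siStar-PAP (0.814 to 0.933), and other genes of chromosome 19 had 0.808 times (0.784 to 0.833).

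By part of the gene and with all summits, 3'-UTRs of members were the densest mRNA part in control and the part that differed least between lists. They held 9.94%, 8.53% and 8.56% of members' summits in control, siStar-PAP and siRBM10, and 8.56% of gene-body length. At p at most 0.01 these shares of summits were 7.22%, 8.94% and 8.45%, with intervals that overlap. The smaller difference between lists in 3'-UTRs thus depended on summits of low score. The 3'-UTRs of members held 107, 151 and 132 summits in control, siStar-PAP and siRBM10, in 76, 96 and 93 members. The 2 depletions thus held 1.41 (1.10 to 1.81) and 1.23 (0.956 to 1.59) times the control number, beside 6.68 and 5.97 in 3'-UTRs of the other genes. Coding sequence held 55, 129 and 134 summits, in 51, 104 and 101 members, with factors of 2.35 (1.71 to 3.22) and 2.44 (1.78 to 3.33), beside 7.58 and 5.90 in other genes. The 5'-UTRs held 8, 44 and 42 summits, with factors of 5.50 (2.59 to 11.7) and 5.25 (2.46 to 11.2), and here the other genes, at 7.38 and 6.75, lay within the members' intervals. Introns held 877, 1398 and 1196 summits, 81.5%, 79.0% and 77.6% of all summits in members, where introns are 81.0% of the length.

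Among mRNA exons the balance of coding sequence and 3'-UTR differed between members and other genes in every list. Of 170 exonic summits of members in control, 62.9% lay in 3'-UTRs (55.5 to 69.8) and 32.4% in coding sequence (25.8 to 39.7), where 3'-UTRs make up 51.9% and coding sequence 38.05% of exon length. In siStar-PAP the 3'-UTR share was 46.6% (41.2 to 52.0) and in siRBM10 42.9% (37.5 to 48.4). In the other genes it was 32.3%, 29.7% and 32.1%, of a 3'-UTR length of 34.8%. Within 500 bp of the 3' end of the gene, 26, 51 and 39 summits of members were found, or 104.7, 205.4 and 157.1 per Mb, lower values than over their whole gene bodies in each list, with intervals that overlap. Around gene starts the numbers were 20, 78 and 71, or 82.9, 323.1 and 294.1 per Mb. The sequence within 500 bp of starts was 57.1% GC and that around ends 42.3%.

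Base composition moved with these differences. Gene bodies of members were 43.2% GC and those of the other genes 51.9%, and 164 members (65.9%) but 83 other genes (6.74%) were under 45% GC. Across members, density per gene had a Spearman correlation with GC of -0.562 in control, 0.312 in siStar-PAP and 0.371 in siRBM10 (249 genes, a description as above). Members under 40% GC, 43 genes, held 262, 243 and 207 summits, or 0.927 (0.779 to 1.10) and 0.790 (0.658 to 0.948) of the control number. The 59 members of 45 to 50% GC held 167, 533 and 510, or 3.19 (2.68 to 3.80) and 3.05 (2.56 to 3.64) times the control number. The 17 members over 55% GC held 3, 62 and 49, a ratio of 20.7 (6.49 to 65.8) and 16.3 (5.09 to 52.4).

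Within classes of gene-body GC from 40 to 50% the intervals of the density ratio between members and other genes included 1 in each list, while under 40% GC members were sparser in both depletions. In control it was 1.13 times theirs under 40% GC (0.786 to 1.62), 1.07 times at 40 to 45% (0.940 to 1.21) and 1.05 times at 45 to 50% (0.878 to 1.25). In siStar-PAP the same classes gave 0.720 (0.529 to 0.982), 0.924 (0.834 to 1.02) and 0.936 (0.849 to 1.03), and in siRBM10 0.614 (0.448 to 0.840), 0.942 (0.841 to 1.06) and 1.10 (0.990 to 1.21). Over 50% GC members held few summits in control, 5 at 50 to 55% and 3 above, and the ratios there were 0.631 (0.262 to 1.52) and 0.382 (0.123 to 1.19). Over 1-kb bins a difference was left in control, with members at 1.76 times the density of other genes in bins of 40 to 45% GC (1.49 to 2.08) and 1.66 times at 45 to 50% (1.40 to 1.95). Relative to what the other genes held in bins of the same GC class, members had 1.39 times the summits in control (1.31 to 1.48), 0.934 times in siStar-PAP (0.891 to 0.979) and 0.956 times in siRBM10 (0.909 to 1.005). At p at most 0.01 the control value was 1.10 (1.002 to 1.21). The part of GC content in the library differences was not tested.

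**Figure D2:**
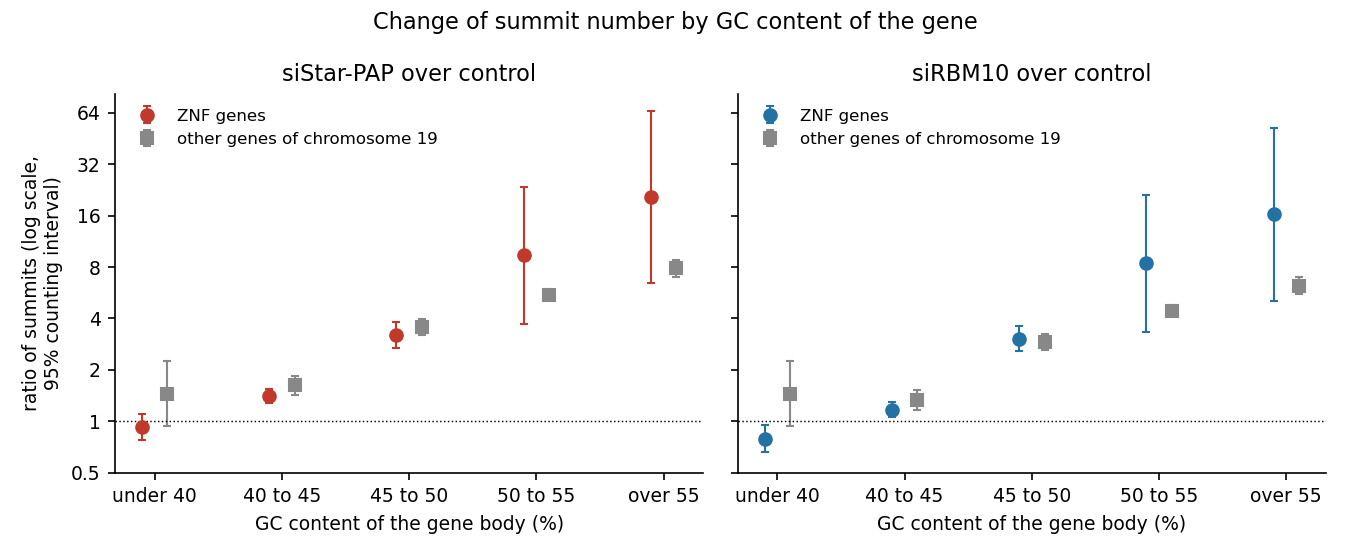
Ratio of summits in siStar-PAP (left) and siRBM10 (right) to control, on a log scale, by GC content of the gene body, for ZNF genes (circles) and other genes of chromosome 19 (squares), with 95% counting intervals. The ratio of ZNF genes ranged from 0.927 and 0.790 under 40% GC to 20.7 and 16.3 over 55% GC, and the other genes followed the same order from 40% GC upwards.

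The zinc finger exon held 46 summits in control, 94 in siStar-PAP and 110 in siRBM10, in 44, 81 and 89 members, or 120.4, 246.1 and 288.0 per Mb. The 2 depletions held 2.04 (1.44 to 2.91) and 2.39 (1.70 to 3.37) times the control number. Only 9 of the 46 control summits had p at most 0.01, as against 85 of 94 and 96 of 110. Relative to introns of the same genes, the exon was at 0.840 of their density in control (0.624 to 1.13), 1.08 in siStar-PAP (0.874 to 1.33) and 1.47 in siRBM10 (1.21 to 1.79). Of these intervals only that of siRBM10 lay above 1. In the other genes of chromosome 19 coding sequence was also denser than introns in both depletions. Their coding sequence held 69.4, 526.2 and 409.45 summits per Mb in control, siStar-PAP and siRBM10, and their introns 79.8, 339.2 and 271.1. Against 162 coding segments of at least 1 kb in other genes of chromosome 19, which are 60.4% GC where zinc finger exons are 43.4%, the density was 2.75 times theirs in control (1.46 to 5.20), 0.582 in siStar-PAP (0.444 to 0.764) and 0.878 in siRBM10 (0.665 to 1.16). A comparison in 1-kb bins of the same GC class took whole gene bodies of the other genes, which are 82.0% intron by length. Relative to these, the exons held 1.06 times the summits in control (0.779 to 1.42), 1.09 times in siStar-PAP (0.878 to 1.33) and 1.48 times in siRBM10 (1.21 to 1.78).

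Of the 246 exons, 91 had no summit in any list. Across the lists 24 members had one in control alone, 35 in siStar-PAP alone, 40 in siRBM10 alone and 36 in both depletions without control. These numbers were not set beside those of other genes. The highest number in 1 exon was 2 in control, in 2 members, one of which was ZNF234, and 3 in each depletion. ZNF749 had 0, 3 and 1 summits in control, siStar-PAP and siRBM10. ZNF850, with 29 fingers among the largest arrays, had 0, 0 and 3. ZNF226 had 1, 1 and 2, ZNF875 and ZNF234 had 0, 2 and 2 and 2, 0 and 2, and ZNF114 had 0, 1 and 2.

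Pooled over the lists, summits lay along the exon and in fingers and spacers in shares near those of sequence length. Of the 250 summits of the 3 lists, 28.0% lay in the first of 4 equal parts of the exon (22.8 to 33.9) and 21.6% in the last (16.9 to 27.1). Fingers, from the first cysteine to the last histidine, held 46.8% of summits (40.7 to 53.0) and 51.1% of exon length, linkers and other spacers held 23.6% (18.8 to 29.2) and 21.3%, and the stretch before the first finger 25.2% (20.2 to 30.9) and 23.1%. Of 159 summits less than 84 nt after a first cysteine codon, 37, 37, 43 and 42 fell in successive steps of 21 nt. The lists differed in these steps, with 8, 5, 5 and 11 of 29 in control, 14, 10, 24 and 11 of 59 in siStar-PAP and 15, 22, 14 and 20 of 71 in siRBM10, and the difference was not tested. The triplet AUA, searched as ATA on the gene strand, occurred 1.74, 1.54 and 1.44 times per 100 nt in the 20 nt around exon summits of control, siStar-PAP and siRBM10, and 1.64 times per 100 nt over whole zinc finger exons. In 3'-UTRs of members it occurred 2.06 times per 100 nt around control summits, 1.12 around those of siStar-PAP and siRBM10 alike, and 2.02 times over the whole regions. The values around summits rest on 44, 34 and 30 occurrences. The 20 nt around these 3'-UTR summits were 40.7%, 44.9% and 46.6% GC in control, siStar-PAP and siRBM10, and the whole regions 40.2%. The triplet holds no G or C, and the part of GC content in its frequency was not tested.

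**Figure D3:**
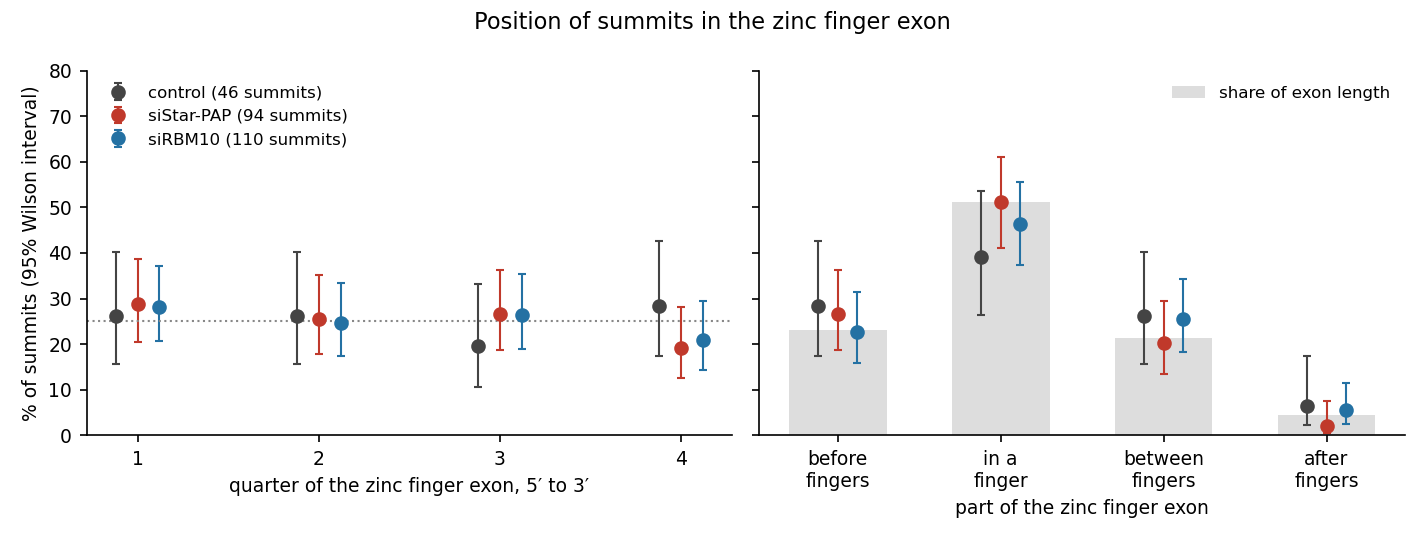
Share of summits in each of 4 equal parts of the zinc finger exon (left, dotted line at an equal share) and in parts of it relative to the fingers (right, grey bars the share of exon length), per library, with 95% Wilson intervals. The intervals of the control list, with 46 summits, and of siStar-PAP and siRBM10, with 94 and 110, include the share of length in all 4 parts.

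Repeated sequence limits what short reads can show here, since the authors kept reads that map to a single place. In the zinc finger exons 82.1% of 30-nt words occurred once in the genome, in coding sequence of other genes 94.7%, and in introns of members and of other genes 75.3% and 75.4%. The median exon had 91.5% single-copy words and the lowest, ZNF492, had 17.8%. The 155 exons with a summit had a median of 92.1% and the 91 without had 90.3%. The 13 exons with less than 50% held 12 summits over the 3 lists. Per Mb of single-copy words the zinc finger exons held 146.6, 299.6 and 350.6 summits and introns of members 190.5, 303.6 and 259.8.

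Along the chromosome, members no more than 500 kb apart were joined into 20 groups, of which 10 had at least 5 members and held 235 members together. In 9 of these 10 clusters the summit number was higher in siStar-PAP and in siRBM10 than in control, although in the cluster from ZNF175 to ZNF331 the siRBM10 ratio of 1.12 had an interval of 0.926 to 1.36. The exception was the cluster from ZNF101 to ZNF254 (chr19:19779605-24312770), with 37 members including ZNF91. It held 325 summits in control, 232 in siStar-PAP and 182 in siRBM10, 0.714 (0.603 to 0.845) and 0.560 (0.467 to 0.671) times the control number. Fewer summits than in control were found in 25 of its 37 members in siStar-PAP and in 29 in siRBM10. Over all 249 members this held for 59 and 67.

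The cluster of ZNF91 was the part of the family with most summits per Mb after the cluster from ZNF565 to ZNF573 in control, and of the 10 clusters the one with fewest in both depletions. In control it held 185.3 per Mb and the other members 129.6, a ratio of 1.43 (1.26 to 1.63). In siStar-PAP it held 132.3 and the others 265.4, a ratio of 0.498 (0.434 to 0.572), and in siRBM10 103.8 and 234.7, a ratio of 0.442 (0.379 to 0.516). The lower number in the depletions depended on summits of low score. At p at most 0.01 the other members held 343, 1364 and 1238 summits in control, siStar-PAP and siRBM10. The cluster then held 114, 213 and 171 summits, 1.87 and 1.5 times the control number. Its factor relative to that of the other members was 0.349 (0.288 to 0.421) in siStar-PAP and 0.309 (0.253 to 0.379) in siRBM10 with all summits, 0.470 (0.364 to 0.607) and 0.416 (0.319 to 0.542) at p at most 0.01, and 0.368 and 0.321 with equal numbers of top summits, below 1 in each.

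The members of this cluster were 40.1% GC, the lowest of the 10 clusters. Relative to other genes in 1-kb bins of the same GC class, the cluster held 1.58 times the summits in control (1.41 to 1.76), 0.619 times in siStar-PAP (0.542 to 0.704) and 0.559 times in siRBM10 (0.481 to 0.647), while the other members held 1.32, 1.01 and 1.06 times. At p at most 0.01 the control value was 1.21 (1.0005 to 1.46) in the cluster and 1.07 (0.957 to 1.19) in the other members. The cluster then stood at 0.647 in siStar-PAP and 0.567 in siRBM10. Between its protein-coding genes, over 2.53 Mb, 428, 234 and 239 summits were found, or 168.9, 92.4 and 94.3 per Mb. In its zinc finger exons 59.6% of 30-nt words occurred once, and in its introns 71.03%. Which of these properties bears on the difference was not tested.

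The other large clusters differed among themselves. From ZNF264 to ZNF446, near the end of the long arm, 43 members of 47.0% GC held 70, 225 and 218 summits, 3.21 (2.46 to 4.20) and 3.11 (2.38 to 4.08) times the control number. In each depletion 37 of the 43 had more summits than in control, where of all 249 members 171 did in siStar-PAP and 155 in siRBM10. From ZNF565 to ZNF573, 26 members held 211, 374 and 281, with 1.77 (1.497 to 2.10) and 1.33 (1.11 to 1.59), and at equal GC class they stood above other genes in all 3 lists, at 1.68 (1.46 to 1.92), 1.48 (1.34 to 1.64) and 1.29 (1.14 to 1.45). From ZNF653 to ZNF490, also 26 members, 54, 125 and 104 were found, and at equal GC class siStar-PAP was at 0.699 (0.582 to 0.833) and siRBM10 at 0.686 (0.561 to 0.831). Genes other than members within the spans of the clusters held 243, 512 and 461 summits, 2.11 and 1.90 times the control number, where those outside the spans held 5.00 and 4.01 times.

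**Figure D4:**
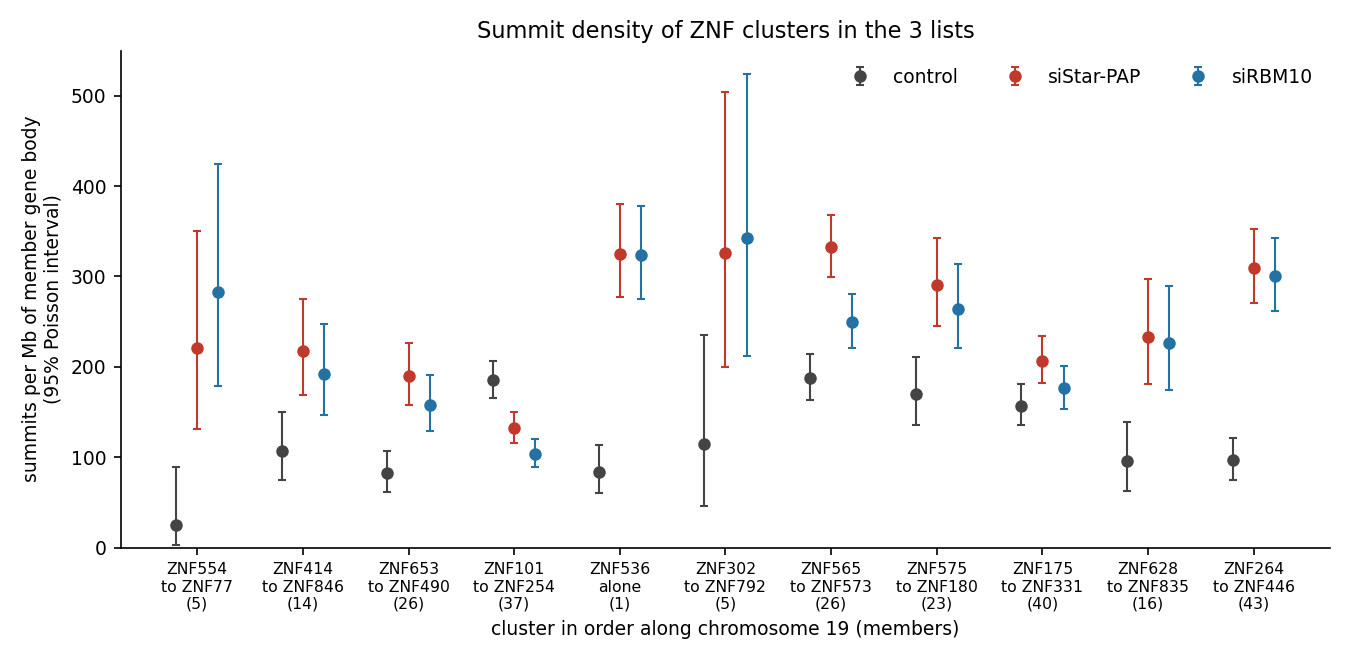
Summits per Mb of gene body in the 10 clusters of at least 5 members and in ZNF536, which lies alone, in order along chromosome 19, with 95% Poisson intervals and one point per library. In the cluster from ZNF101 to ZNF254 control stood at 185.3 and the depletions at 132.3 and 103.8, while in the 9 other clusters and in ZNF536 the control point is the lowest.

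Per gene, a member was counted as higher or lower when its summits, with 0.5 added, differed at least 2-fold, among genes with at least 5 summits in both lists together. In siStar-PAP 79 of 201 members (39.3%) were higher, against 40% of all protein-coding genes, and 15 (7.46%) were lower, against 17.8%. In siRBM10 59 of 192 (30.7%) were higher, against 34.4%, and 19 (9.90%) were lower, against 21.6%. The shares of higher members were thus near the background and the shares of lower members below it. Of the other genes of chromosome 19, 86.1% and 78.4% were higher and 0.535% and 1.19% lower. Of 112 members with an exonic summit in control, 27 (24.1%) had none on siStar-PAP, against 38.6% of all genes, and 40 (35.7%) had none on siRBM10, against 40.4%. These shares were 21% and 30% in the other genes of chromosome 19 and 26.1% and 34.2% in ZNF genes of other chromosomes. The lower share on siStar-PAP was thus not particular to members.

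The members with the largest differences in number were long genes or members of the cluster of ZNF91. ZNF536, a zinc finger gene best known for its role in neuronal differentiation, spans 489 kb and held 41 summits in control, 159 in siStar-PAP and 158 in siRBM10, 3.88 (2.75 to 5.47) and 3.85 (2.73 to 5.43) times the control number. Without it the members' factors were 1.56 and 1.34. ZNF565 held 10, 34 and 29 and ZNF529 10, 32 and 17. ZNF544 had no summit in control and 18 and 26 in the depletions, so no ratio was formed. ZNF536, ZNF565, ZNF529 and ZNF544 were among the largest rises, a rule by which genes were named. The intervals of ZNF536 do not allow for that choice. ZNF146 lies within ZNF565, and its 4, 14 and 12 summits are among those of ZNF565, since the lists carry no strand.

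The 3 members of the cluster of ZNF91 with most summits in control held fewer in both depletions. All 3 were among the largest falls in 1 or both depletions, a rule by which genes were named. Lower numbers follow in part from that choice, and the intervals do not allow for it. At p at most 0.01 the cluster as a whole held 1.87 and 1.5 times its control number. ZNF91, with 31 fingers, is known to bind and repress SVA retrotransposons. It held 24 summits in control, 10 in siStar-PAP and 12 in siRBM10, ratios of 0.417 (0.199 to 0.871) and 0.5 (0.250 to 0.9998). ZNF675 held 33, 11 and 16, ratios of 0.333 (0.168 to 0.660) and 0.485 (0.267 to 0.881). ZNF98 held 22, 9 and 14, ratios of 0.409 (0.188 to 0.888) and 0.636 (0.326 to 1.24). ZNF431, in the same cluster, held 13, 12 and 7. Outside it, ZNF568 held 25, 21 and 13, and its ratio in siRBM10 was 0.520 (0.266 to 1.02).

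Of the members chosen for most summits in coding sequence and 3'-UTR, ZNF8 held 1, 7 and 6 summits in its 3'-UTR in control, siStar-PAP and siRBM10, and 0, 1 and 2 in coding sequence. ZNF587 held 1, 4 and 3 in its 3'-UTR and 0, 1 and 2 in coding sequence, and ZNF549 held 1, 4 and 2 and 0, 1 and 1. In these 3 genes control was the lowest list. ZNF568 went the other way, with 5, 4 and 1 in its 3'-UTR, as did ZNF562 with 5, 3 and 2. ZNF765 held 1, 4 and 3, ZNF431 3 in each list and ZNF264 3, 2 and 3. All of these are numbers of single summits, whose Poisson intervals overlap between lists. ZNF587 and ZNF814 overlap, as do ZNF549 and ZNF550, and a summit in the shared stretch counts for both.

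**Figure D5:**
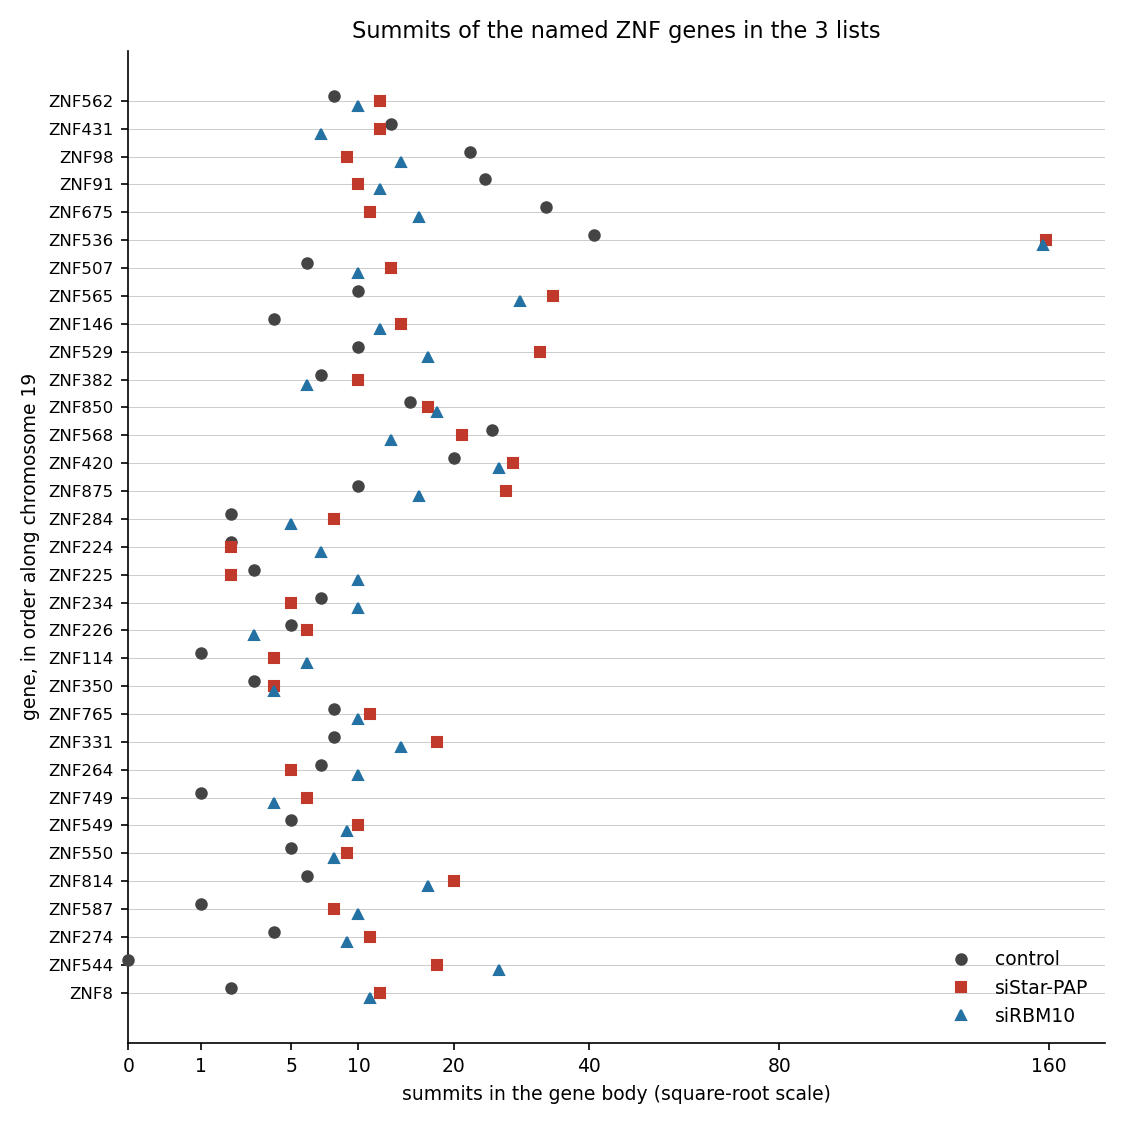
Summits in the gene body of the 33 members named by rule, in order along chromosome 19, in control (circles), siStar-PAP (squares) and siRBM10 (triangles), on a square-root scale. ZNF98, ZNF91 and ZNF675 have their highest number in control, and ZNF536 holds 41 in control and 159 and 158 in the depletions.

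The summits of highest score in coding sequence and 3'-UTRs of members differed between lists. Some of them are shown as 30 nt on the strand of the gene (hg19), with the summit base in capitals, because they are among the sites of highest score in each list.
ZNF850, control, 3'-UTR, chr19:37235601-37235630: tgtttttgtaactgCttccttggagatatt
ZNF549, siStar-PAP, 3'-UTR, chr19:58064041-58064070: ctgcccatgctctaGcaggtggaccaactc
ZNF284, siRBM10, 3'-UTR, chr19:44593241-44593270: tacaggcctgagccAtgcgcacagcatttt
ZNF420, siRBM10, zinc finger exon, chr19:37619002-37619031: aggcctttatccgtGgctcacaacttactc
ZNF225, siRBM10, zinc finger exon, chr19:44635347-44635376: catcagagagttcaCatgggggagaaactc
The control summit in ZNF850 scored 4.53. The letters of each of these 5 windows occurred once in the genome. This does not hold for all sites of high score. The control summit in the 3'-UTR of ZNF382 also scored 4.53, and its window occurred 680 times. The window of the control summit in the 3'-UTR of ZNF587, which scored 3.43, occurred 18 times. ZNF284 and ZNF420 in siRBM10 scored 7.09 and 7.03 and ZNF225 6.31, a score that ZNF45, ZNF507 and ZNF724 shared. In siStar-PAP the highest was ZNF507, at 7.53, in the zinc finger exon window given above, followed by ZNF587B and the summit of ZNF549, both at 5.74. The latter lies at the same base in the 3'-UTR of ZNF549 and in the coding sequence of ZNF550 on the other strand.

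Other members named in advance as studied zinc finger genes gave small numbers. ZNF331, an imprinted gene, held 8, 18 and 14 summits in control, siStar-PAP and siRBM10. ZNF274, known to target SETDB1 to the 3' ends of zinc finger genes, held 4, 11 and 9. ZNF382 held 7, 10 and 6, ZNF420 held 20, 28 and 26, ZNF224 held 2, 2 and 7 and ZNF350 held 3, 4 and 4. None of these had a counting interval of the ratio to control that lay away from 1.

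Members split by features that the choice of genes did not use. The 204 members with a match to a KRAB pattern, 42.5% GC, held 947, 1383 and 1172 summits, 1.46 (1.34 to 1.59) and 1.24 (1.14 to 1.35) times the control number. The 45 without a match, 46.5% GC and including ZNF536, held 148, 422 and 401, 2.85 (2.36 to 3.44) and 2.71 (2.24 to 3.27) times. A summit where members of both kinds overlap is in both numbers. By number of fingers, the ratio was 2.36 and 1.96 in 63 members with at most 9, 1.64 and 1.44 in 108 with 10 to 14, and 1.33 and 1.20 in 75 with 15 or more, while gene-body GC was 45.1%, 43.2% and 42.2%.

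Other genes, chosen by symbol or pathway, were set beside the members. The zinc finger genes among them were taken by symbol alone and include ZFP36, which the authors list as an RNA-binding protein. The 17 other zinc finger genes of chromosome 19 with ZBTB, ZFP, ZIM or ZSCAN symbols held 73, 135 and 122 summits, 1.85 (1.39 to 2.46) and 1.67 (1.25 to 2.23) times the control number, and 4, 12 and 10 of them had an exonic summit. The 16 genes of the KRAB silencing pathway held 117, 234 and 184 summits, 2 (1.60 to 2.50) and 1.57 (1.25 to 1.98) times, with exonic summits in 8, 13 and 15. TRIM28, the corepressor, had 0, 6 and 5 summits and SETDB1 8, 11 and 5. SMARCAD1, a chromatin remodeller, had 17, 3 and 3, and ATF7IP, a partner of SETDB1, 32, 13 and 15.

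Few positions recurred between lists. Of the 1076 control summits in members, 24.3% had a siStar-PAP summit within 500 bp (21.8 to 26.9), 16.4% a siRBM10 summit (14.3 to 18.7) and 5.58% both (4.36 to 7.11), beside 37.0%, 27.9% and 12.7% in the other genes of chromosome 19, where the depleted lists were denser. In the reverse direction 15.1% of siStar-PAP and 11.9% of siRBM10 summits of members had a control summit. Between the depletions 26.1% of siStar-PAP and 29.96% of siRBM10 summits were shared. At the same position the shares of control summits were 1.02% and 0.372%.

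In control, scores in members were lower than in the other genes of chromosome 19. Of the members' control summits, 52.9% carried the commonest score of the list (49.9 to 55.8), against 13.9% in the other genes (12.5 to 15.5). Over the whole control list the share was 63.2%, above that of members. In members 3.25% of control summits scored 4 or more, against 11.0% in the other genes. In the depletions the order for high scores was the other way, with 11.5% of members' summits at 4 or more in siStar-PAP (10.1 to 13.1) and 15.0% in siRBM10 (13.3 to 16.8), against 7.97% and 8.58% in other genes. Scores depend on the depth of each library and of IgG, which the lists do not give. The shares in this paragraph compare genes within a list. Counts at p at most 0.01 and the score ranges given above do set lists side by side. The part of depth in those differences was not tested.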

How the data were processed

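Per the labels and methods of the study, the authors trimmed reads with cutadapt 1.14, checked them with FastQC 0.72, removed duplicate reads, aligned the rest to hg19 by BWA 0.7.12, kept those of a single locus and ran MACS2 on each library with IgG as background at p = 0.05. The deposited score is each summit's p-value from MACS2 as −log10, and the lists do not give read depth. Sample groups came from the labels.

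Summits were counted without strand in gene bodies, and each was given 1 class over all transcripts, coding sequence first, then 3'-UTR, 5'-UTR, other exon and last intron. C2H2 fingers were found as C, 2 to 4 residues, C, 12 residues, H, 3 to 5 residues, H, and a KRAB match by a pattern of conserved residues, which misses some KRAB genes. Words of 30 nt were counted on both strands of GRCh37, at each exonic and every 20th other position of a gene. The members, the gene lists and the tests were chosen with earlier results of these data known. Named genes were the 10 members with most summits in coding sequence and 3'-UTR, the 5 with most in zinc finger exons, the 3 highest scores per list in coding sequence or 3'-UTR with ties by symbol, the 3 largest rises and falls per depletion, members with a zinc finger exon summit in all lists, and 10 studied genes. Alternatives were a p of at most 0.01, equal numbers of top summits with ties drawn at random, merged summits, members that overlap no other gene, other transcripts, class orders, gaps and distances. Comparisons by 1-kb bins, with long coding segments, without ZNF536 and of the cluster of ZNF91 under other settings were added after the data were seen. Python 3.11.15, numpy 2.4.6, pandas 2.3.3, scipy 1.17.1, pysam 0.24.0 and samtools 1.23.1 were used. Steps were tested on toy genes, small fixed inputs and, for intervals of ratios, simulated counts, and 21 of 21 checks gave the known answer. The sequences of 2 high-scoring control sites are not reported here.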

Additional observations from a re-analysis of the deposited data

How the results depend on the processing

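Of 146 values recomputed under another setting, 81 stayed within their counting interval or, for numbers of genes or clusters, within 1.5 times, 62 moved and 3 reversed; the cause of a move was not tested unless the setting itself gives it. At p at most 0.01 the members held 457, 1577 and 1409 summits. The density ratio in control, counted as reversed, was 0.997 with an interval that includes 1 (0.899 to 1.11). Those in siStar-PAP and siRBM10 were 0.853 and 0.848. The cluster of ZNF91 reversed to 1.87 and 1.5, members had ratios of 3.45 and 3.08 and other genes 4.03 in siStar-PAP, the ratios of ratios were 0.855 and 0.850, zinc finger exons kept 9 control summits, and 3.28% of control summits lay in coding sequence and 7.22% in 3'-UTRs. With the same number of top summits members held 812 and 1654 in control and siStar-PAP, with density ratios of 1.495 and 0.751, ratios of 2.04 and 1.90 in members and 4.06 and 4.03 in other genes, ratios of ratios of 0.502 and 0.472, 26 control summits in zinc finger exons, and 0.921 and 0.762 in the cluster of ZNF91. Divided by list totals the ratios were 2.08 and 2.003 in members and 5.87 and 5.25 in other genes, and 12 members were lower in siRBM10.

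Members that overlap no other gene, which are fewer, held 717, 1027 and 905 summits and 33, 57 and 59 in zinc finger exons, with density ratios of 0.591 and 0.644 in the depletions, ratios of 1.43 and 1.26, ratios of ratios of 0.308 and 0.336, and 6.52% of siRBM10 summits in 3'-UTRs. Without ZNF536 members held 1611 and 1384. With 3'-UTR ranked before coding sequence the siRBM10 shares were 10.2% and 7.07%, and with 1 transcript a gene the 3'-UTR shares were 7.62%, 6.44% and 6.74%. Merging summits gave 3.55 for other genes in siRBM10. With at least 10 summits 38 and 30 members were higher and 8 and 8 lower. Over the whole gene body 3 and 6 members lost their summits. Shared control summits were 6.78% and 3.62% within 100 bp and 1.02% and 0.372% at the same position.

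No paired analysis was possible because each condition is 1 library. Intervals cover counting error only, and the lists give neither read depth nor peak widths.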
